A study of Mus musculus with 6 samples.

Results

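Zebrin stripe markers are genes whose expression differs between the alternating parasagittal bands of Purkinje cells in the cerebellum. The members were the 7 genes of the count table with the GENCODE M21 symbols Aldoc, Plcb3, Mpped2, Prkcd, Mybpc1, Ncs1 and Plcb4, out of 48709 Ensembl genes. The first 6 were taken as markers of zebrin-positive stripes and Plcb4 as the marker of zebrin-negative stripes. The choice used no measured value of this table, but it was made with earlier results of these data known. Reads were counted per gene in the whole cerebellum of C57BL/6J mice at an age of 40 weeks. The comparison set 3 SCA7 knock-in samples (genotype 140Q/5Q, so 140 glutamines encoded by one Atxn7 allele and 5 by the other) against 3 wild-type samples. In SCA7, spinocerebellar ataxia type 7, an expanded glutamine tract in ataxin-7 leads to degeneration of cerebellum and retina. The labels do not say whether the samples came from separate animals, so p-values measure only the spread between these samples, which may be technical.

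Zebrin II, the antigen that first showed the stripes, is the glycolytic enzyme aldolase C, encoded by Aldoc. Zebrin-positive and zebrin-negative Purkinje cells receive different climbing fibre inputs and use different forms of phospholipase C beta. This enzyme acts downstream of metabotropic glutamate receptors and the G protein Gq, where it splits a membrane lipid into IP3, which releases calcium from the endoplasmic reticulum, and diacylglycerol, which activates protein kinase C. Phospholipase C beta 3 (Plcb3) is known as the form of zebrin-positive cells and phospholipase C beta 4 (Plcb4) as that of zebrin-negative cells.

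The libraries held between 34630391 and 39826478 counts in the knock-in group and between 39528292 and 49127673 counts in the wild-type group. All 7 members passed the filter on low counts, and each had at least 742 counts in every library. Levels are given as CPM, the usual scaling of counts to a common library size, here with the TMM factors of edgeR. All 6 granule neuron markers passed the filter, with a summed level of 2735 to 3325 CPM in knock-in and 3490 to 3880 CPM in wild type. Of these, 1 was lower (Cbln3, log2 fold change -0.46, edgeR adjusted p 0.023) and none higher, 5 had a negative log2 fold change, and 3 were lower with the replicate block. None was called without any 1 wild-type library or without knock-in replicate 1 or 3, and 2 were without knock-in replicate 2. Atxn7 itself, whose counts do not separate the alleles, had 22.4, 24.05 and 22.1 CPM in knock-in and 25.9, 26.2 and 22.6 CPM in wild type (log2 fold change -0.12 ± 0.09, SE, edgeR adjusted p 0.52).

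Aldoc and Plcb3 fell in the knock-in cerebella, to 64.8% and 58.0% of their wild-type means. No other member passed edgeR's test in the fit with genotype alone, and none of the 7 was called higher. In 5 of the 7 members every knock-in library lay below every wild-type library. Over all 16699 genes tested, 1.9% passed edgeR's test at an adjusted p of 0.05 (1.28% lower, 0.629% higher). The groups did not overlap in 23.8% of genes, with knock-in below wild type in 11.5% and above it in 12.3%. The median log2 fold change was -0.38 over the 7 members and -0.43 over the 6 zebrin-positive ones, beside 0.01 over all genes tested. With the replicate number as a block, 4 members were called lower (2034 genes in all, against 318 without the block), and without knock-in replicate 2 also 4. With a covariate for brainstem markers 0 members were called, and 4 genes in all.

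**Figure D1:**
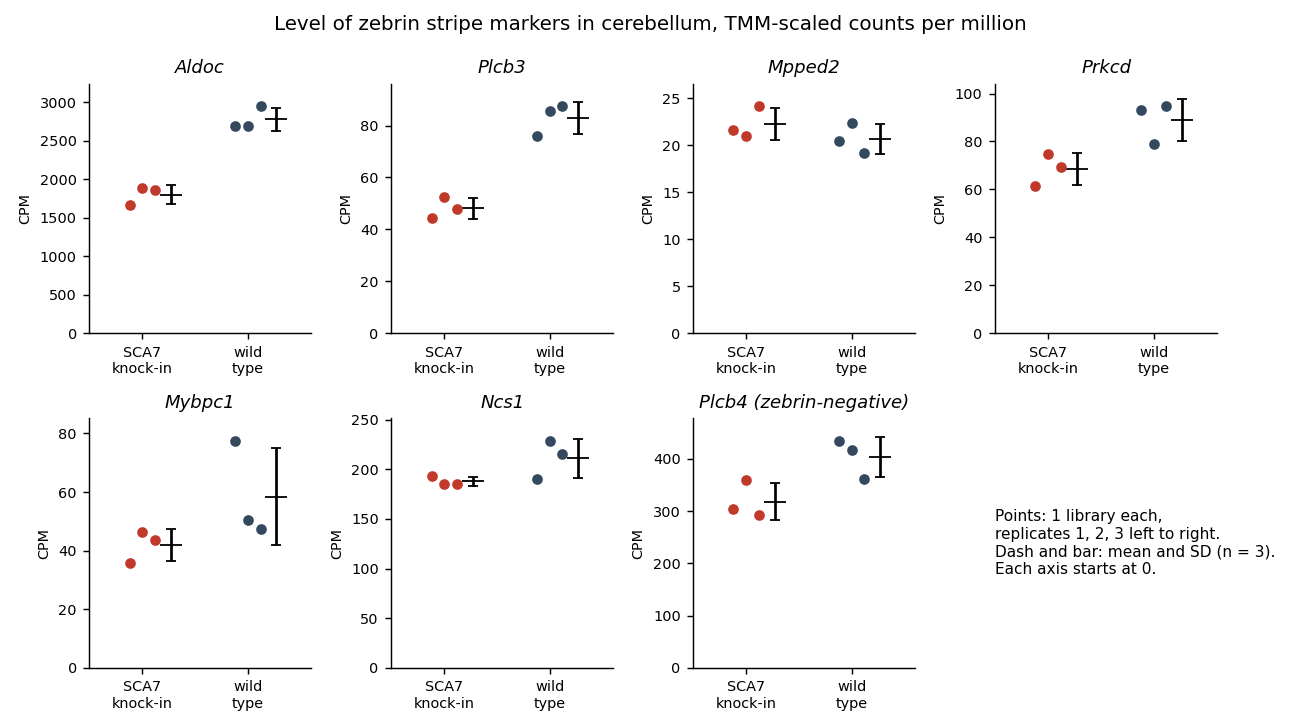
CPM of each member by library, with knock-in libraries in red left of wild-type libraries in blue, and the mean and SD (n = 3 each) beside the points. Every axis starts at 0. The groups are apart for Aldoc and Plcb3, narrowly apart for Prkcd, Mybpc1 and Plcb4, and overlap for Mpped2 and Ncs1.

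Aldoc (ENSMUSG00000017390, mm10, chromosome 11, 78322968 to 78327781, plus strand) had 1657, 1880 and 1857 CPM in knock-in, against 2687, 2695 and 2945 CPM in wild type. The highest knock-in library was well below the lowest wild-type library. The means were 1798 ± 123 CPM in knock-in and 2776 ± 147 CPM in wild type (SD, n = 3 each). The log2 fold change was -0.63 ± 0.07 (SE), with an edgeR adjusted p of 0.00392. Aldolase C is also made by astrocytes, and counts of whole cerebellum do not assign the fall to a cell type. Nor can fewer cells of a type be told apart from less RNA per cell. Of 6 astrocyte markers, 3 were lower (Slc1a2, Aqp4 and Gja1), and 4 with the replicate block. Without wild-type replicate 1 or 2 only 1 was, and without wild-type replicate 3 or knock-in replicate 1 or 3 none was. Their summed level was 2245 to 2481 CPM in knock-in and 2915 to 2999 CPM in wild type, and no marker was at 0. The log2 level of Aldoc above the mean of these 6 markers was 2.53, 2.59 and 2.71 in knock-in. In wild type it was 2.88, 2.82 and 2.92, so the groups were apart against this mean too. The markers were not alike, with log2 fold changes from -0.63 (Slc1a2) to -0.0003 (S100b). Slc1a2 thus fell about as far as Aldoc, and the mean also holds markers that changed little. The part of astrocytes in the result was not tested.

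Aldoa, the aldolase of muscle and most other cells, had 1507, 1538 and 1684 CPM in knock-in and 1206, 1515 and 1521 CPM in wild type. Its groups overlapped (log2 fold change 0.16 ± 0.10, edgeR adjusted p 0.43). Per kilobase of exon, Aldoc stood at 98.1%, 109% and 98.4% of Aldoa in the knock-in libraries and at 199%, 159% and 173% in the wild-type libraries. Aldoc was thus at about the level of Aldoa in knock-in and above it in every wild-type library.

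Plcb3 (ENSMUSG00000024960, chromosome 19, 6952325 to 6976470, minus strand) had 44.3, 52.4 and 47.6 CPM in knock-in, against 76.0, 85.6 and 87.4 CPM in wild type. The groups were far apart relative to their spread, with means of 48.1 ± 4.05 CPM in knock-in and 83.0 ± 6.14 CPM in wild type. The log2 fold change of -0.79 ± 0.09 (edgeR adjusted p 0.0037) was the largest fall among the members. Plcb3 shares 22 of its 6960 exon bases with Ppp1r14b on the opposite strand.

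Brainstem markers also differed between the libraries. The summed level of 9 such markers was 58.4, 12.7 and 40.0 CPM in knock-in and between 15.8 and 20.5 CPM in wild type. Averaged as log2 CPM over the 5 that passed the filter, the level was 3.06, 0.38 and 2.22 in knock-in and -0.51, 0.83 and -2.04 in wild type. Knock-in replicate 2 was thus the lowest library in the sum, but above wild-type replicates 1 and 3 in the mean log2 level. Most of the wild-type sum came from Th. It had 16.0, 7.36 and 14.8 CPM in knock-in and 13.4, 15.4 and 14.6 CPM in wild type. Of the 5 markers that passed the filter, Th alone had a negative log2 fold change (-0.19). Beside the wild-type libraries, the low sum of knock-in replicate 2 rests largely on Th. Beside the other knock-in libraries it rests more on Dbh and Slc18a2. Dbh had 14.4, 1.78 and 9.94 CPM in knock-in replicates 1, 2 and 3, and Slc18a2 had 16.5, 1.56 and 10.4 CPM. Aldoc and Plcb3 were lower in knock-in replicate 2 than in any wild-type library, and the part of brainstem tissue in their change was not tested. Of these 5 markers 1, the vesicular monoamine transporter gene Slc18a2, was higher, and 3 were with the replicate block. Without knock-in replicate 2, when 7 markers passed the filter, 6 were higher. The number was 1 without wild-type replicate 2, and 0 without wild-type replicate 1 or 3 or knock-in replicate 1 or 3. Dbh and Slc6a4 were at 0 in wild-type replicate 3, Chat in wild-type replicate 2, and Hoxa5 and Hoxb5 in wild-type replicate 1. With the mean log2 level of the 5 markers that passed the filter as a covariate, which is in part confounded with genotype, the log2 fold change was -0.50 for Aldoc and -0.67 for Plcb3 (edgeR adjusted p 0.41 and 0.30).

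Prkcd encodes protein kinase C delta, a kinase activated by diacylglycerol (ENSMUSG00000021948, chromosome 14, 30595354 to 30626210, minus strand). It had 61.4, 74.96 and 69.2 CPM in knock-in, against 93.1, 79.0 and 94.7 CPM in wild type. The groups did not overlap, but knock-in replicate 2 and wild-type replicate 2 lay close together. The log2 fold change was -0.38 ± 0.10, with a 95% interval from -0.60 to -0.15 and an edgeR adjusted p of 0.095 without the block. With the replicate block the adjusted p was 0.022, and without knock-in replicate 2 it was 0.037. Prkcd lies 16.49 Mb from Atxn7 on the same chromosome, and whether the region around the knock-in allele bears on its level was not tested. With the brainstem covariate its log2 fold change was -0.15.

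Mybpc1 encodes the slow form of myosin-binding protein C, a protein of the muscle sarcomere (ENSMUSG00000020061, chromosome 10, 88518279 to 88605152, minus strand). It had 35.8, 46.4 and 43.6 CPM in knock-in, against 77.4, 50.5 and 47.3 CPM in wild type. Wild-type replicate 1 stood apart, and the other wild-type libraries were only just above the highest knock-in library. The log2 fold change was -0.48 ± 0.17 (95% interval -0.87 to -0.09, edgeR adjusted p 0.19). Without wild-type replicate 1 it was -0.23. Of the exon bases of Mybpc1, 5.57% are shared with a gene model on the opposite strand, and the strand setting of the counting is not given.

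Ncs1 encodes neuronal calcium sensor 1, a calcium-binding protein that many neurons make (ENSMUSG00000062661, chromosome 2, 31245823 to 31295989, plus strand). It had 193, 185 and 185 CPM in knock-in, against 190, 228 and 215 CPM in wild type. The groups overlapped through knock-in replicate 1 and wild-type replicate 1, and the log2 fold change was -0.17 ± 0.08 (95% interval -0.35 to 0.02, edgeR adjusted p 0.32).

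Mpped2 encodes a metallophosphoesterase (ENSMUSG00000016386, chromosome 2, 106693269 to 106868356, plus strand). It had 21.6, 20.9 and 24.1 CPM in knock-in, against 20.4, 22.4 and 19.2 CPM in wild type. It was the single member with a positive log2 fold change, 0.11 ± 0.10, and its 95% interval of -0.11 to 0.33 included 0 (edgeR adjusted p 0.61). That interval lay above those of Aldoc (-0.79 to -0.46) and Plcb3 (-0.99 to -0.58), with no overlap. The sign of the Mpped2 change turned to -0.03 with the brainstem covariate.

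Plcb4, the zebrin-negative marker (ENSMUSG00000039943, chromosome 2, 135659011 to 136014593, plus strand), had 303, 360 and 292 CPM in knock-in, against 434, 418 and 362 CPM in wild type. Knock-in replicate 2 and wild-type replicate 3 were nearly level, and the groups did not overlap. The means were 319 ± 36.3 CPM in knock-in and 405 ± 38.2 CPM in wild type. The log2 fold change was -0.34 ± 0.10, with a 95% interval from -0.57 to -0.12 and an edgeR adjusted p of 0.12 without the block. With the replicate block the adjusted p was 0.00897, and without knock-in replicate 2 it was 0.024.

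**Figure D2:**
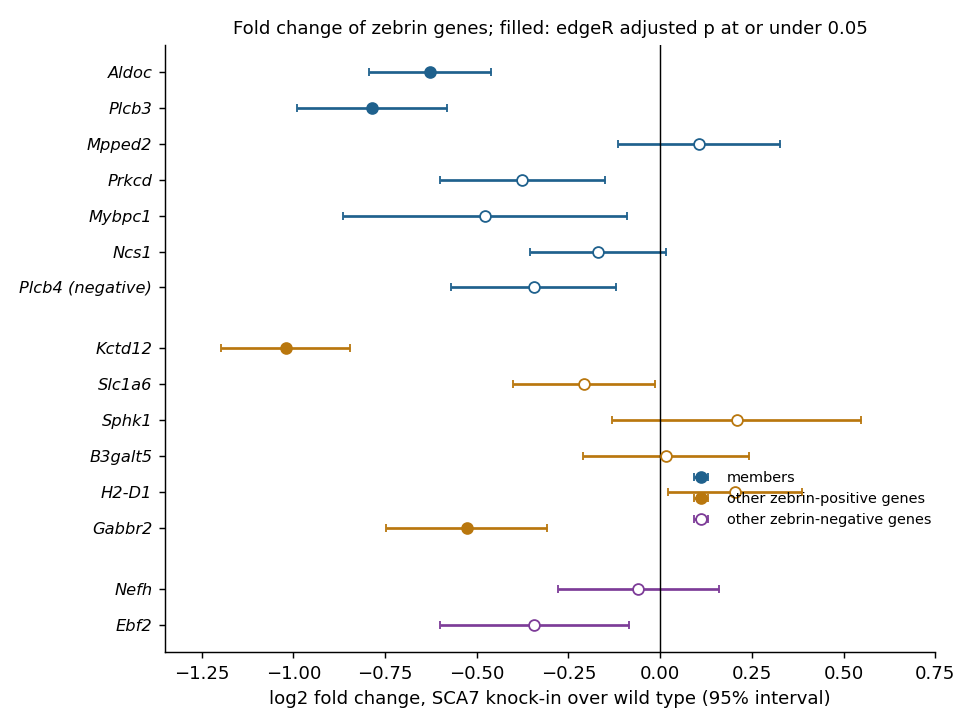
Log2 fold change of knock-in over wild type for the members (blue), other zebrin-positive genes (orange) and Nefh and Ebf2 of the other zebrin-negative genes (purple), with 95% intervals from edgeR. Filled points passed an adjusted p of 0.05: Aldoc and Plcb3 among the members, Kctd12 and Gabbr2 among the others shown. Of the 4 other zebrin-negative genes, the 1 called lower is not shown.

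Levels between genes were compared per kilobase of exon. In both groups Aldoc was by far the most abundant member, at 551 ± 37.7 CPM per kilobase in knock-in and 851 ± 45.0 in wild type. Ncs1 followed at 40.4 ± 1.004 in knock-in and 45.4 ± 4.22 in wild type, and Plcb4 at 35.5 ± 4.04 in knock-in and 45.1 ± 4.26 in wild type. The order of Ncs1 and Plcb4 changed from library to library. Prkcd had 12.4 ± 1.22 CPM per kilobase in knock-in and 16.0 ± 1.56 in wild type. Mybpc1 had 9.27 ± 1.22 in knock-in and 12.9 ± 3.65 in wild type, a spread that covers the level of Prkcd. Plcb3 and Mpped2 were the least abundant in every knock-in library and in wild-type replicate 1, while in wild-type replicates 2 and 3 Plcb3 was above Mybpc1. In knock-in they were almost level, at 6.91 ± 0.582 and 6.49 ± 0.489 CPM per kilobase, with Mpped2 above Plcb3 in replicate 3. In wild type Plcb3, at 11.9 ± 0.882, was above Mpped2, at 6.02 ± 0.470, in all 3 libraries.

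The contrast of Plcb3 with Plcb4 asks whether the phospholipase C beta forms of the opposite stripes changed by different amounts. It was made within each library, so that it does not depend on scaling between libraries. Plcb3 stood at 18.8%, 18.8% and 21.01% of Plcb4 per kilobase in the knock-in libraries and at 22.5%, 26.4% and 31.2% in the wild-type libraries. The ratio was lower in every knock-in library than in any wild-type library, but the wild-type libraries were spread widely. The means were 19.5 ± 1.28% in knock-in and 26.7 ± 4.32% in wild type (SD, n = 3 each). The log2 ratio was lower by a difference of -0.44 in knock-in, with a two-sided exact permutation p of 0.1, the smallest that 3 against 3 samples allow. This test can therefore not place the difference past a threshold of 0.05. Within equal replicate numbers the knock-in minus wild-type difference was -0.26, -0.49 and -0.57. It was lower in 3 of 3 pairs (exact sign-flip p 0.25, the smallest that 3 pairs allow). As the groups did not overlap, any pairing would give 3 of 3 and this p, so the pairs are not separate evidence. The longest Plcb3 transcript has a GC content of 56.9% and that of Plcb4 one of 43.5%. With offsets for trends in GC content and length the difference in log2 ratio was -0.63.

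The other zebrin-positive members, set beside Plcb4 in the same way and not tested, did not follow one pattern. Aldoc stood at 1501%, 1436% and 1747% of Plcb4 per kilobase in knock-in and at 1700.4%, 1773% and 2239.6% in wild type, so the groups overlapped. Prkcd and Mybpc1 also overlapped, with a difference in log2 ratio of -0.03 and -0.10. Ncs1 overlapped too, at 0.18. Mpped2 was higher relative to Plcb4, at 18.7%, 15.2% and 21.6% in knock-in and 12.3%, 14.01% and 13.9% in wild type. Of the summed level of the 4 phospholipase C beta genes per kilobase, Plcb3 made up 13.8 ± 1.08% in knock-in and 18.4 ± 2.32% in wild type. Plcb4 made up 70.4 ± 0.89% in knock-in and 69.0 ± 2.45% in wild type. Plcb1, the main form of the forebrain, had 88.8, 108 and 67.4 CPM in knock-in and 95.3, 86.1 and 85.5 CPM in wild type (edgeR adjusted p 0.97). Plcb2, best known from blood cells, had at most 1.503 CPM in any library.

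**Figure D3:**
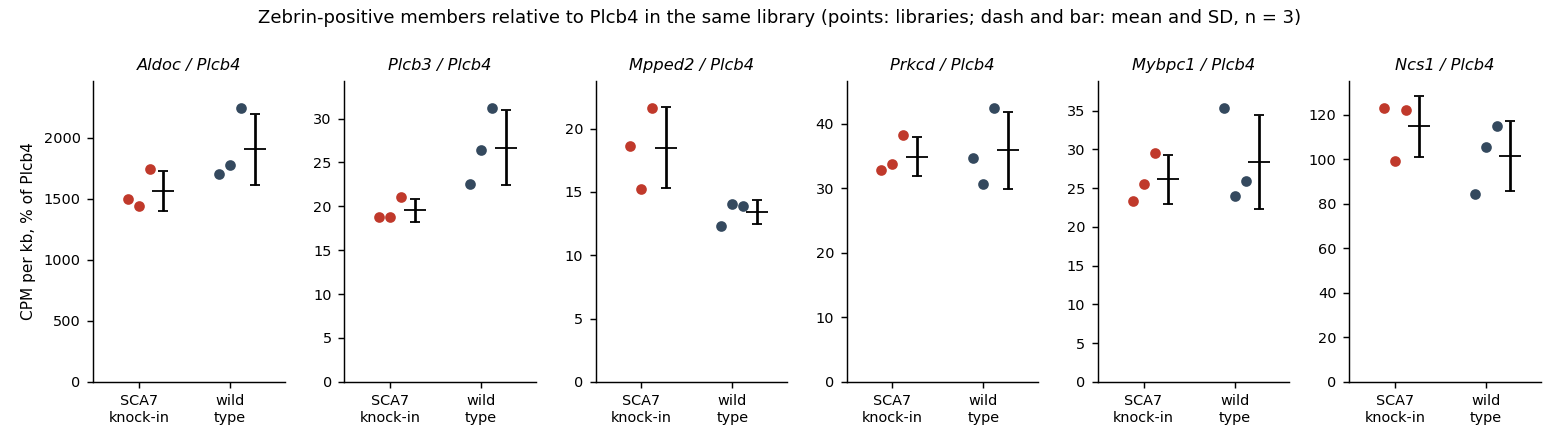
Level per kilobase of each zebrin-positive member as a percentage of Plcb4 in the same library, with knock-in left of wild type, points for libraries and the mean and SD (n = 3) beside them. Plcb3 over Plcb4 is 18.8 to 21.01% in knock-in and 22.5 to 31.2% in wild type, while Mpped2 over Plcb4 is higher in all 3 knock-in libraries.

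The promoters of both phospholipase C beta members and of Aldoc, the other member called lower, are shown to set their sequences side by side, from RefSeq on GRCm38.p6, each from 250 bases before to 50 after the annotated start. All 7 members matched the table, with 1 to 3 starts each. The start nearest to the GENCODE gene start is shown for Aldoc (chr11:78322823-78323122, plus strand), Plcb3 (chr19:6969765-6970064, minus strand) and Plcb4 (chr2:135659297-135659596, plus strand), and it is not known which start these cerebella used. For Plcb3 the only listed start, at 6969814, lies inside the gene, whose GENCODE start is at 6976470. Capitals mark GC boxes (GGGCGG, either strand) and the core letters recognised by the nuclear receptor ROR alpha (AGGTCA, either strand), a transcription factor that Purkinje cells require.
Aldoc: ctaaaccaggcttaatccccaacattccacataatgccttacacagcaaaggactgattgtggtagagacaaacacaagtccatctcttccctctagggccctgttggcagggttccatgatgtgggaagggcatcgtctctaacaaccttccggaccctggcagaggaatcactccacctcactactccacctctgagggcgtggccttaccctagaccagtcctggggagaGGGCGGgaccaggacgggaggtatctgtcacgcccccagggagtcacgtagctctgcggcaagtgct
Plcb3: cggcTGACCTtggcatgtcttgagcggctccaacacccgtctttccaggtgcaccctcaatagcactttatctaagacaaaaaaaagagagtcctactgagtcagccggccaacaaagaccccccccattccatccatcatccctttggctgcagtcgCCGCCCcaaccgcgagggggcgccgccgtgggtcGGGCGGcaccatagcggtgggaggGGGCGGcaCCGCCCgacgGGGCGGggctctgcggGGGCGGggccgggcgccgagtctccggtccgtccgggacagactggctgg
Plcb4: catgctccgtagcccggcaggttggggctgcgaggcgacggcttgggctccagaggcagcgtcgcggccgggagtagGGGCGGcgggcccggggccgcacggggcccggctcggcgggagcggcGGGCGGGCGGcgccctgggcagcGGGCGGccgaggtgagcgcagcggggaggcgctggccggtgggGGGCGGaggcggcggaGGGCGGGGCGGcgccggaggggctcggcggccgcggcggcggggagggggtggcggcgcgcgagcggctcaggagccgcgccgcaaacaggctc
The Plcb3 and Plcb4 windows were rich in GC boxes, with 6 matches for Plcb3 and 7, some of them overlapping, for Plcb4, while Aldoc held 1. Of all 32851 promoter windows of the table, 35.7% held a GC box. AGGTCA was found in Plcb3, with its first base at -246, and in none of the other windows of the members, and 16.3% of all windows held it. The GC content was 56.3% for Aldoc, 67.0% for Plcb3 and 84.0% for Plcb4. TATAAA was not found in these 3 windows on either strand, and 13.6% of all windows held it.

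Purkinje markers that do not depend on the stripe were used as a common yardstick. Of 15 such markers, 6 were lower and none higher, with a median log2 fold change of -0.38. With the replicate block 10 were lower. Without wild-type replicate 1, 2 or 3 the number was 2, 3 or 4, and without knock-in replicate 1 or 3 it was 2. The markers were not alike: their log2 fold changes ran from -1.01 (Rgs8) to 0.09 (Foxp2). Rgs8 and Gng13 (-0.81) fell further than Plcb3, and Itpr1 (-0.64) fell about as far as Aldoc. The earlier results known when the list was written included falls of several of the 15 markers. Averaged over the 15 genes, the log2 CPM was 7.44, 7.72 and 7.64 in knock-in and 7.95, 8.07 and 7.92 in wild type. The members were then set against this mean in each library, as a description with no test. Plcb3 lay -1.97, -2.01 and -2.07 log2 units from the Purkinje mean in knock-in and -1.71, -1.65 and -1.47 in wild type. It was lower in every knock-in library than in any wild-type library. Aldoc lay at 3.25, 3.15 and 3.22 in knock-in and 3.44, 3.33 and 3.60 in wild type, again with the groups apart. Plcb4 lay at 0.80, 0.77 and 0.55 in knock-in and 0.81, 0.64 and 0.57 in wild type, with the groups overlapping and a difference of 0.03. The difference was 0.00 for Prkcd, -0.07 for Mybpc1 and 0.21 for Ncs1, all with overlap. Mpped2 alone was higher on this scale in every knock-in library, by a difference of 0.49.

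**Figure D4:**
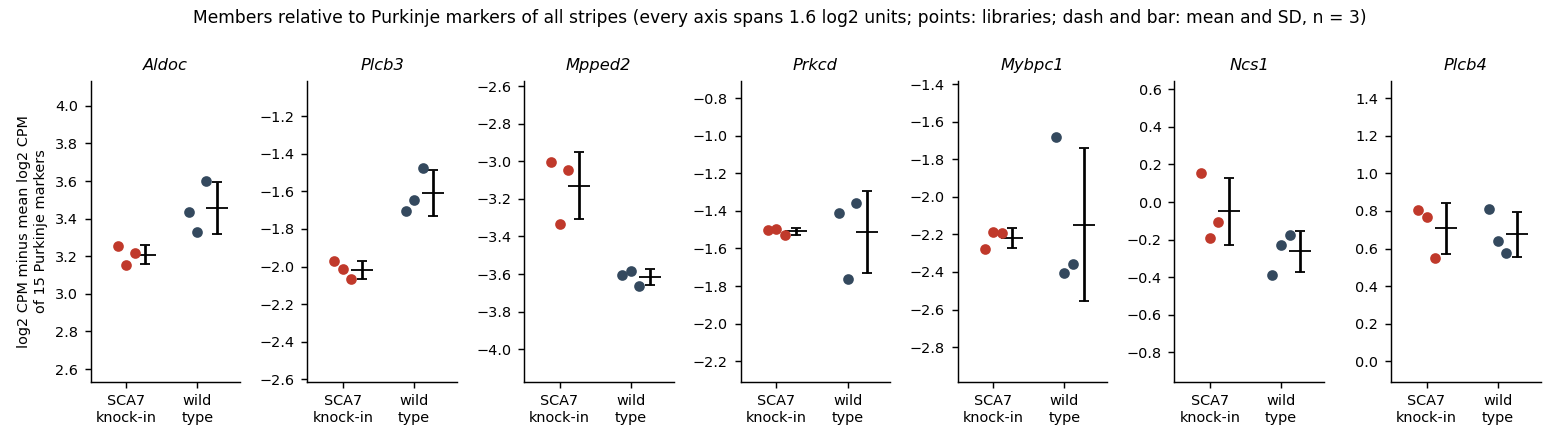
Log2 CPM of each member minus the mean log2 CPM of 15 Purkinje markers of all stripes, by library, with knock-in left of wild type and the mean and SD (n = 3) beside the points. Aldoc and Plcb3 sit lower in knock-in by 0.25 and 0.41 log2 units, Plcb4 and Prkcd sit level, and Mpped2 sits higher. The log2 fold changes of the 15 markers themselves run from -1.01 (Rgs8) to 0.09 (Foxp2).

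Of 6 further zebrin-positive genes, 2 were lower and none higher, with a median log2 fold change of -0.10. With the replicate block 3 were lower and 1 higher. Kctd12, an auxiliary subunit of the GABA-B receptor, had 154, 167 and 142 CPM in knock-in and 315, 316 and 311 CPM in wild type (log2 fold change -1.02 ± 0.08, edgeR adjusted p 0.000607). It fell further than any member, and it was called with each library left out in turn, but not with the brainstem covariate (edgeR adjusted p 0.056). Gabbr2, a subunit of the same receptor, had 219, 271 and 228 CPM in knock-in and 335, 378 and 323 CPM in wild type (log2 fold change -0.53, edgeR adjusted p 0.028). Of the 6 fits with a library left out, Gabbr2 was called only in the one without knock-in replicate 2. Slc1a6, the Purkinje glutamate transporter EAAT4, had 199.99, 241 and 233 CPM in knock-in and 246, 271 and 261 CPM in wild type (edgeR adjusted p 0.25, and 0.034 with the replicate block). H2-D1, a major histocompatibility gene, had 197, 202 and 214 CPM in knock-in and 161, 189 and 182 CPM in wild type. Every knock-in library was above every wild-type library, at an edgeR adjusted p of 0.23, and of 0.045 with the replicate block. Sphk1, a sphingosine kinase, and the glycosyltransferase gene B3galt5 overlapped between the groups, with log2 fold changes of 0.21 ± 0.15 and 0.02 ± 0.10.

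Of 4 further zebrin-negative genes, 1 was lower and none higher, with a median of -0.31, and 3 were lower with the replicate block. Without any 1 wild-type library or without knock-in replicate 1 none was lower, and without knock-in replicate 2 the number was 2. The transcription factor gene Ebf2 had 14.6, 16.7 and 13.95 CPM in knock-in and 18.8, 21.4 and 17.2 CPM in wild type, a log2 fold change of -0.34 ± 0.12 with the groups apart (edgeR adjusted p 0.17, and 0.028 with the replicate block). The neurofilament gene Nefh had 185, 149 and 168 CPM in knock-in and 158, 178 and 188 CPM in wild type, and the groups overlapped.

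Of 13 genes of the pathway around phospholipase C beta, 5 were lower and none higher, with a median log2 fold change of -0.34. With the replicate block 12 were lower. The number was 1 without wild-type replicate 1 or knock-in replicate 1, 2 without wild-type replicate 2 or 3 or knock-in replicate 3, and 9 without knock-in replicate 2. Downstream, the IP3 receptor gene Itpr1 had 3195, 4110 and 2995 CPM in knock-in and 5414, 5783 and 4830 CPM in wild type. Inpp5a, an IP3 phosphatase, had 442, 539 and 490.1 CPM in knock-in and 648, 697 and 646 CPM in wild type, and Car8, an inhibitor of IP3 binding, fell as well. Upstream, Rgs8, a regulator of G protein signalling, also fell, while the alpha subunits of Gq and G11 did not share a direction. Gnaq had 186, 201 and 171 CPM in knock-in and 233, 248.9 and 214 CPM in wild type (log2 fold change -0.32 ± 0.09, edgeR adjusted p 0.10), and Gna11 had 142, 151 and 153 CPM in knock-in and 116, 139 and 137 CPM in wild type (log2 fold change 0.19 ± 0.09, adjusted p 0.29).

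Of 23 paralogues of the members, 20 passed the filter, 2 were lower and none higher, and their median log2 fold change was -0.05. With the replicate block 6 were lower and 1 higher. Hpcal1, a neuronal calcium sensor like Ncs1, had 281, 344 and 322 CPM in knock-in and 415, 485 and 455 CPM in wild type (log2 fold change -0.52 ± 0.09, edgeR adjusted p 0.026). Mybpc3, the cardiac form of myosin-binding protein C, had 26.0, 24.02 and 26.8 CPM in knock-in and 33.5, 38.2 and 35.2 CPM in wild type (log2 fold change -0.48 ± 0.09, edgeR adjusted p 0.028). Both calls were lost without any 1 wild-type library and without knock-in replicate 1 or 3, where no paralogue was called. Vsnl1, the most abundant sensor tested per kilobase, had 666, 654 and 649 CPM in knock-in and 776, 764 and 756 CPM in wild type (edgeR adjusted p 0.12). Mpped1 had 12.8, 8.66 and 10.97 CPM in knock-in and 6.92, 10.2 and 8.19 CPM in wild type, with the groups overlapping.

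Genes whose pattern over the 6 libraries was most like a member were found by the root mean square difference of centred log2 CPM, among 10007 abundant protein-coding genes. For Plcb3 they were Gdf11, a ligand of the TGF-beta family, at 0.079, Doc2b, a calcium sensor of vesicle release, at 0.081, and Ppp1r16b, a regulatory subunit of protein phosphatase 1, at 0.083. Aldoc followed closely at 0.099, with 4 of those genes nearer to Plcb3 than Aldoc was. In the other direction, 20 genes were nearer to Aldoc than Plcb3 was. This distance depends on the size of a change, and both members fell (log2 fold change -0.63 for Aldoc and -0.79 for Plcb3). For Aldoc the most alike genes were Cep72, a centrosomal protein, at 0.053, Fads1, a fatty acid desaturase, at 0.083, and Syndig1, a synaptic membrane protein, at 0.085. For Plcb4 they were the cannabinoid receptor gene Cnr1 at 0.021, Rflnb, an actin regulator, at 0.022 and Rragd, a Rag GTPase, at 0.028. Cnr1 had 339, 399 and 329 CPM in knock-in and 484, 480.3 and 415 CPM in wild type, with knock-in replicate 2 the highest of its group and wild-type replicate 3 the lowest, as for Plcb4. Plcb3 was at 0.26 from Plcb4, and 6463 genes were nearer to Plcb4 than Plcb3 was. The distance is not scaled for the size of a change, and Plcb3 fell further than Plcb4 (log2 fold change -0.79 against -0.34). A gene with little change can thus be nearer to Plcb4, and this count does not tell whether the patterns differ in shape.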

How the data were processed

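The authors deposited raw, whole-number counts for each Ensembl gene. Per the submitters' processing notes, HTSeq 0.6.1 and build mm10 were used, and the notes also name bcl2fastq 2.17.1.14, TopHat2 2.0.14 and Bowtie2 2.1.0. Per the labels' protocols the libraries were stranded and polyadenylated-RNA based. Which annotation release was used, and whether counting used the strand, is not given in the sources used here. GENCODE M21 matched 48349 of 48709 identifiers, and the others held 0.0503% of counts.

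Tests were run in R 4.3.3 with edgeR 4.0.16 on all genes: filterByExpr (minimum count 10, minimum total 15), TMM, the quasi-likelihood F test with genotype alone, and Benjamini-Hochberg adjustment over the 16699 genes tested. The SE is the absolute log2 fold change divided by the square root of F. Ratios used log2 of CPM + 0.01 and an exact permutation test. CPM per kilobase uses the union of GENCODE exons.

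The members and lists were chosen with earlier results of these data known. Named genes were the members, other zebrin genes, pathway and paralogue genes that were called or most abundant, and the 3 genes of most alike pattern for Plcb3, Aldoc and Plcb4 at a mean CPM of at least 10. Genes such as Gnaq, Gna11, Plcb1 and Plcb2 were added for completeness after their values were seen.

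Libraries of equal replicate number deviated alike from their group means: the deviations correlated at 0.27, 0.43 and 0.55 over 10278 genes. For unequal numbers the correlations were between -0.40 and -0.08. Deviations cancel within a group by construction, so the values for unequal numbers are tied to those for equal ones and are not separate evidence. The labels do not state a pairing by replicate number, and what lies behind the likeness was not tested. Library pairs within a group differed by more than sampling noise (chi-square per degree of freedom 13.06 to 28.14). Alternatives were other scalings and filters, DESeq2 1.42.0, limma 3.58.1 with voom, the replicate block, a brainstem covariate, GC and length offsets (mgcv 1.9.3) and each library left out. The tests were tested on simulated data. Some genes of the lists are not reported here by name; they remain in the counts and medians of their lists.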

Additional observations from a re-analysis of the deposited data

How the results depend on the processing

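Aldoc and Plcb3 stayed lower and called under 14 of 15 alternatives each, with each library left out included (log2 fold change -0.66 to -0.56 for Aldoc and -0.86 to -0.72 for Plcb3). The exception was the brainstem covariate, at -0.50 and -0.67, which also turned Mpped2 to -0.030. Calls were gained for Prkcd and Plcb4 with no filter (-0.38 and -0.35), with DESeq2 (-0.38 and -0.35), with the replicate block (-0.38 and -0.35) and without knock-in replicate 2. Over libraries left out they ranged from -0.46 to -0.30 for Prkcd and from -0.45 to -0.28 for Plcb4. Mybpc1 was called with no filter (-0.48). Called members numbered 5 with no filter, 4 with DESeq2, 4 with the replicate block, 0 with the brainstem covariate and 2 to 4 with a library left out, against 2. Called genes numbered 513 with scaling by library size (190 lower, 323 higher, against 213 and 105 with TMM), 1303 with no filter, 908 with DESeq2, 2034 with the replicate block, 707 with GC and length offsets and 4 with the brainstem covariate. Leaving out knock-in replicate 1, 2 or 3 gave 39, 858 or 73 genes, and leaving out wild-type replicate 1, 2 or 3 gave 47, 89 or 78. The cause of these differences was not tested. The log2 ratio of Plcb3 to Plcb4 was lower in knock-in under all 9 alternatives. The difference ran from -0.56 to -0.32 with a library left out and from -0.63 to -0.43 otherwise. Because the groups did not overlap in this ratio, leaving out a library could not change its sign. The block by replicate number gives the same difference by construction, so the count of 9 is not separate evidence. The replicate block changed no other member's call. With 3 against 3 libraries, the exact test cannot go below 0.1.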
